A study of Mus musculus with 9 samples.

Results

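Matricellular genes and fibronectin were followed as a group of 9 genes, Fn1, Thbs1, Spp1, Sparc, Tnc, Ccn1, Ccn2, Tgfbi and Fbln2, out of 54532 gene identifiers in the count table. The genes were taken by symbol, and the set was chosen by its measured counts in all 3 groups of these same libraries, with their differences in view. Their levels and fold changes are therefore a description with standard errors, and no test is given for them. All 9 passed the filter on low counts that left 12012 tested genes.

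Bone-marrow neutrophils of wild type C57/B6 mice spent 12 h in low serum (0.5% FBS), and their bulk RNA was sequenced. The 3 groups had 3 libraries each: neutrophils kept alone, neutrophils sorted from co-culture with PyMT-M cells, and neutrophils sorted from co-culture with PyMT-N cells. PyMT stands for polyoma middle T antigen, the driver of a mouse model of breast cancer, and the letters N and M are not explained in the sources used here. Both co-cultures were sorted by flow cytometry. Sorting of the neutrophils kept alone is not mentioned, so co-culture and sorting cannot be told apart in comparisons with that group. Replicates carry the word biological in the labels, but no animal or culture is named. Library names repeat the same 3 numbers in each group, without saying whether a number marks a shared animal, so standard errors and p-values measure the spread between these libraries. The 2 comparisons with neutrophils kept alone share those 3 libraries.

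Matricellular proteins are secreted into the extracellular matrix, where they bind integrins, syndecans and growth factors and tune adhesion and migration more than they build the scaffold. Fibronectin is a scaffold glycoprotein that cells assemble into fibrils through integrins, and several matricellular proteins bind to it. In wounds and carcinomas these proteins are mostly known as products of fibroblasts, tumour cells and macrophages, and platelets store thrombospondin-1 and fibronectin.

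Library totals ran from 1641049 to 4524563 counts. Levels are normalised CPM, counts scaled to library depth with TMM factors, which hold the bulk of genes level between libraries. A count of 0 allows for up to 3 counts, and this floor equals 0.573 to 2.26 normalised CPM depending on the library, for counting error only. Alone replicate 3 stood apart, with the lowest total, 11814 genes with a count against 15094 to 17008 elsewhere, and 1.75% of its counts in mitochondrial messenger RNA against 0.180% to 0.769%. All 14 neutrophil markers had counts in every group. Their summed level was 34604 to 48629.7 CPM alone, 16726 to 21193 in PyMT-M and 16698 to 21278 in PyMT-N co-culture. Epithelial markers (18 genes, summed) lay at 47.5 to 111 CPM alone, 101 to 166 in PyMT-M and 2392 to 3189.6 in PyMT-N co-culture. Mesenchymal markers (21 genes, summed) lay at 192 to 223 CPM alone, 1123 to 1207 in PyMT-M and 739.6 to 822 in PyMT-N co-culture. Transcripts typical of other cell types thus moved with both co-cultures. In bulk RNA, fewer cells of a type and less RNA per cell cannot be told apart, nor can RNA made by neutrophils and RNA of other cells in the same library. No member is in any of the marker lists.

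**Figure D1:**
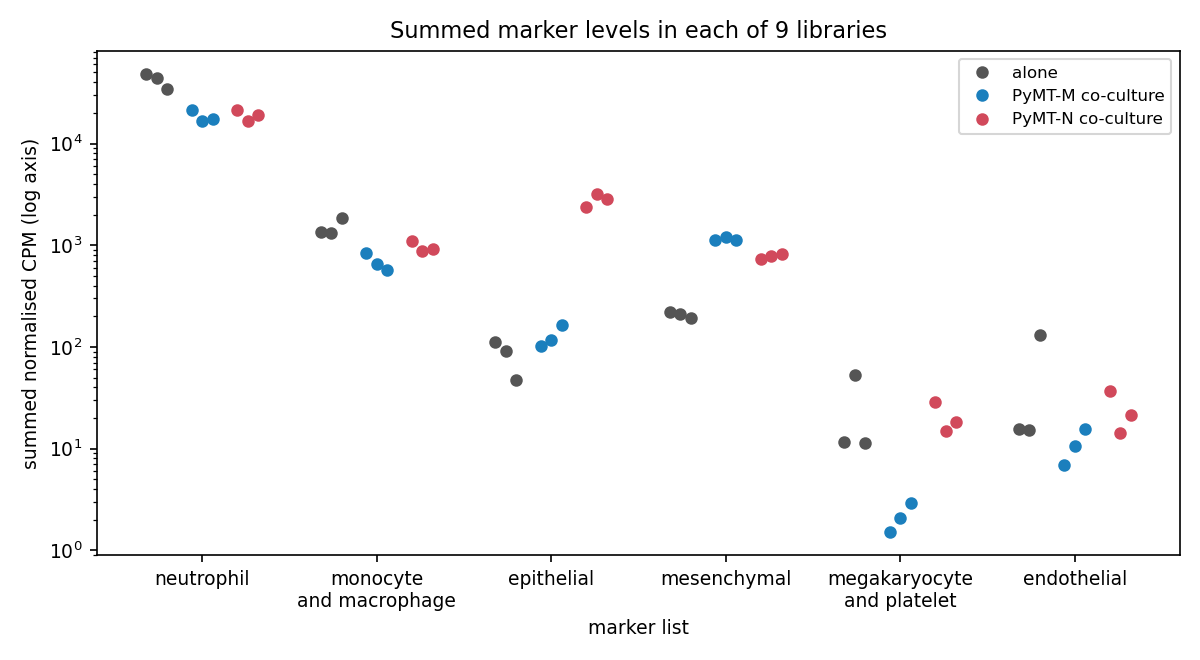
Summed normalised CPM (log axis) of 6 marker lists in each library, 1 point per library in replicate order from left to right, coloured by group. Epithelial markers lay at 2392 CPM or more in every PyMT-N library and at 166 CPM or less in all others, and neutrophil markers were highest in the 3 libraries of neutrophils kept alone.

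RefSeq promoter sequences (build GRCm38.p6) were at hand for 6 of the 9 members. The 250 bases before a start site are printed for 3 members whose window lies wholly upstream of the annotated gene. Ccn1 and Tnc were near the floor alone and high in PyMT-N co-culture, and Spp1 had counts in all libraries. Capitals mark the motif matches named below.

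Ccn1, chr3:145649986-145650235, minus strand: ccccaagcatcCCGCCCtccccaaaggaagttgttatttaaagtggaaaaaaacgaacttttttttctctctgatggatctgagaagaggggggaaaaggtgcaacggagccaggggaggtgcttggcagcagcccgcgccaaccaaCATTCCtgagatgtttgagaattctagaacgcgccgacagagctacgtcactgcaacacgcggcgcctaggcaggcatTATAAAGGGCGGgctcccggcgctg
Tnc, chr4:64047016-64047265, minus strand: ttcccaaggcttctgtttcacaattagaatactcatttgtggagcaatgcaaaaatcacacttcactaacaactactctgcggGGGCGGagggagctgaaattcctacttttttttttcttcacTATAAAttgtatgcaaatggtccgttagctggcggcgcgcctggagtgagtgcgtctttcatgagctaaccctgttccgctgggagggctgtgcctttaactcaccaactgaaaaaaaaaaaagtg
Spp1, chr5:104434861-104435110, plus strand: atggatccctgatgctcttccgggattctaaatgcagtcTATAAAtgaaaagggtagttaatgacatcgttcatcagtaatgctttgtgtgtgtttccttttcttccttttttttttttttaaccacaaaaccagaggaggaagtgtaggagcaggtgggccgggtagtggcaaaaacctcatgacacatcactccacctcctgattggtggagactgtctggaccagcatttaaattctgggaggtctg

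Each window was searched on both strands, and shares are of windows of the same length at 32851 start sites. The TATA box, TATAAA, stood 25 to 20 bases before the start in Ccn1, 126 to 121 in Tnc and 211 to 206 in Spp1, and is found in 12.4% of windows. The GC box, GGGCGG, stood at 19 to 14 in Ccn1, directly after the TATA box, and at 167 to 162 in Tnc. It also stood at 239 to 234 in Ccn1 as read on the other strand, and 32.7% of windows hold it. The TEAD site, GGAATG, stood at 103 to 98 in Ccn1 as read on the other strand, and 12.6% of windows hold it. The AP-1 site, TGACTCA, is found in 4.46% of windows and had no match in these 3. The cyclic AMP response element, TGACGTCA, is found in 1.55% and had no match in them either. The ETS site, CAGGAAG, with 10.8%, had none. The palindromic SMAD site, GTCTAGAC, with 0.167%, and the CArG box, with 1.47%, had none. These matches are letters in a window and say nothing of binding.

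With PyMT-N cells, all 9 members were higher than in neutrophils kept alone, with no overlap, from 2.01-fold for Tgfbi to 1634-fold in the count ratio of Ccn1, which rests on 1 count alone. Across all tested genes, 53.0% were called in that comparison (29.4% higher), and 56.7% had groups that did not overlap (33.4% higher). The median log2 fold change of the 9 members was 8.33, against 0.12 over all tested genes. With PyMT-M cells, 5 members were higher than alone, 3 (Fn1, Thbs1 and Tgfbi) were lower, and Ccn2 overlapped. Across all tested genes 56.1% were called (28.2% higher, 27.9% lower), and 57.9% did not overlap (31.4% higher, 26.5% lower). The members' median was 2.91, against -0.03 over all genes. Between the co-cultures 8 members were higher with PyMT-N cells and Sparc was lower. Across all tested genes 34.6% were called (19.1% higher, 15.5% lower), and 52.9% did not overlap (27.3% higher, 25.5% lower). The members' median was 3.62, against -0.02. Since these contrasts chose the members, nothing is read from the counts. Together the 9 genes took 0.0360% to 0.0526% of all counts alone, 0.0930% to 0.105% in PyMT-M and 0.521% to 0.576% in PyMT-N co-culture.

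Directions hold for TMM scaling unless another is named. Scaling to 25 pan-leukocyte genes moved the median over all genes, on the log2 scale, by 1.05 in the first comparison, 1.43 in the second and -0.41 between the co-cultures. Scaling by library totals moved it by 0.29, 0.47 and -0.21. The pan-leukocyte genes held 2.39% ± 0.114 (SD, n = 3) of counts alone, 1.22% ± 0.194 in PyMT-M and 1.40% ± 0.112 in PyMT-N co-culture.

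**Figure D2:**
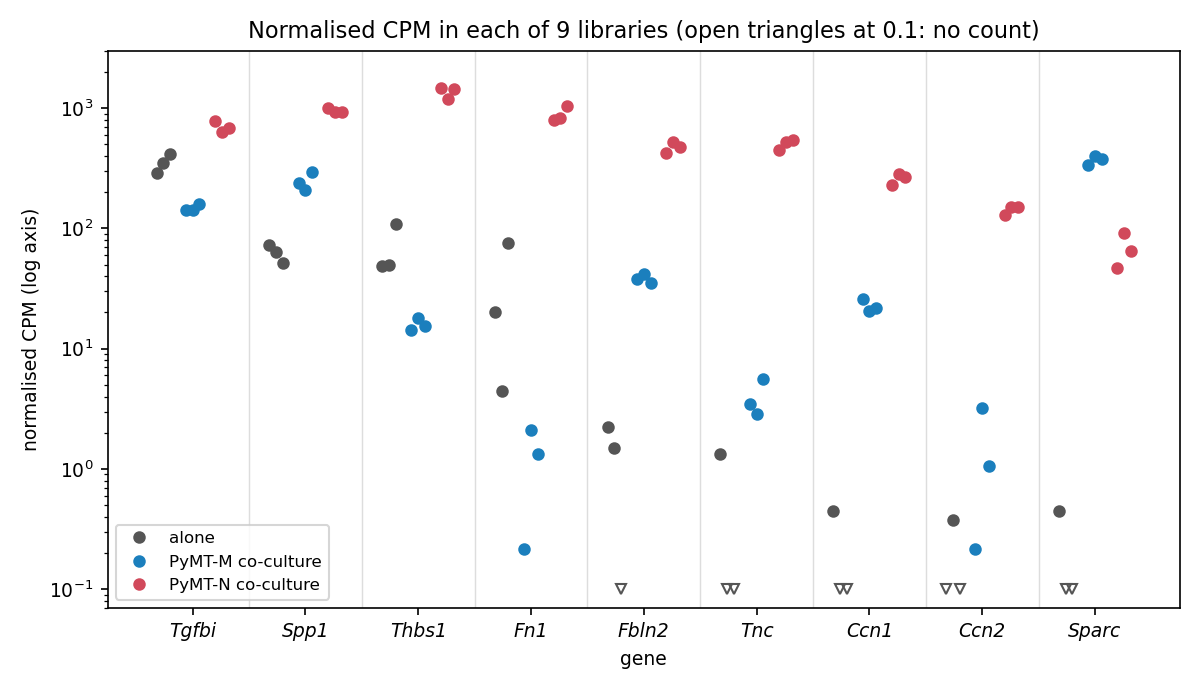
Normalised CPM (log axis) of the 9 genes in each library, 1 filled point per library with a count, coloured by group, and open triangles at 0.1 for libraries with no count. The PyMT-N libraries were the highest for 8 genes and the PyMT-M libraries, at 335 CPM or more, for Sparc. Tgfbi, Spp1, Thbs1 and Fn1 had counts in every alone library, and the other 5 genes were at or near the floor there.

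Fn1 encodes fibronectin, the scaffold glycoprotein of the set (chromosome 1, 71585520 to 71653200, minus strand). Its level was 20.1, 4.48 and 75.4 CPM in alone replicates 1 to 3, from 45, 12 and 100 counts. It was 0.215, 2.10 and 1.33 CPM in the PyMT-M libraries and 789.8, 822 and 1042 CPM in the PyMT-N libraries. The 3 groups did not overlap, and the alone libraries were the most uneven, with replicate 3 highest and replicate 2 close to the PyMT-M libraries. The log2 fold change was 4.96 ± 0.60 (SE) with PyMT-N and -4.47 ± 1.00 with PyMT-M cells relative to alone, and 9.43 ± 0.81 between the co-cultures (PyMT-N minus PyMT-M). Alone replicate 3 set the size: without it the first became 6.24 and the second -3.20. Without PyMT-M replicate 2, the second became -5.22 and the third 10.19. Without alone replicate 2 the first was 4.33 and the second -5.11.

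Thbs1 encodes thrombospondin-1, which binds CD47 and CD36 and activates latent TGF-beta (chromosome 2, 118111876 to 118127133, plus strand). It was at 49.0, 49.7 and 109 CPM alone, 14.2, 18.1 and 15.4 with PyMT-M cells, and 1463, 1181 and 1446 with PyMT-N cells. No library of one group reached another, and as for Fn1 the highest alone value came from replicate 3. The log2 fold changes were 4.36 ± 0.27 with PyMT-N and -2.05 ± 0.29 with PyMT-M cells against alone, and 6.41 ± 0.30 between the co-cultures. Scaled to pan-leukocyte genes, the PyMT-M value was -0.56.

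Tgfbi encodes TGF-beta-induced protein, an integrin ligand that binds collagen and fibronectin (chromosome 13, 56609523 to 56639562, plus strand). Alone it had 287, 349 and 416 CPM. It had 143, 143 and 159 CPM with PyMT-M cells and 788, 631 and 686 with PyMT-N cells, with no overlap between groups. Its log2 fold change against alone was 1.01 ± 0.17 with PyMT-N cells, the smallest among the members. With PyMT-M cells it was -1.23 ± 0.18, a direction that turned to 0.26 under pan-leukocyte scaling. PyMT-N against PyMT-M gave 2.24 ± 0.18.

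Markers of myeloid and vascular cells differed among the alone libraries too. Monocyte and macrophage markers (15 genes, summed) were at 1359, 1327 and 1859.9 CPM in alone replicates 1 to 3, 569 to 846 in PyMT-M and 877 to 1096 in PyMT-N libraries. Endothelial markers (8 genes) were at 15.6, 15.3 and 132 CPM alone, against 6.88 to 15.7 and 14.3 to 36.7. Megakaryocyte and platelet markers (9 genes) were at 11.6, 53.1 and 11.3 CPM alone, 2.93 or less with PyMT-M and 14.9 to 29.0 with PyMT-N cells. B cell markers (8 genes) were at 104, 112 and 340.2 CPM alone, and dendritic markers (9 genes) at 371, 456 and 628 CPM. The monocyte and macrophage, endothelial, B cell and dendritic sums were thus highest in the alone library with the most Fn1, Thbs1 and Tgfbi. The platelet sum, the eosinophil, basophil and mast cell sum and the T and NK cell sum were not. Alone, 1 of 15 monocyte and macrophage markers (C1qa) and 3 of 8 endothelial markers (Cdh5, Tek and Emcn) had no count. The monocyte marker Csf1r was at 342 CPM ± 147 (SD, n = 3) alone, and Ccr2, from the same list, at 137 ± 5.96. The part of these cell types in the levels of Fn1, Thbs1 and Tgfbi was not tested.

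Spp1 encodes osteopontin, a secreted ligand of integrins and CD44 that macrophages and carcinoma cells are known to make (chromosome 5, 104435118 to 104441050, plus strand). It was at 73.1, 63.9 and 51.3 CPM alone, 240.3, 209.6 and 297 with PyMT-M cells and 999.7, 921 and 927 with PyMT-N cells. Its 3 groups lay apart without overlap and with little spread within a group. The log2 fold change against alone was 3.90 ± 0.20 with PyMT-N and 1.97 ± 0.19 with PyMT-M cells, and 1.93 ± 0.18 between the co-cultures.

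Tnc encodes tenascin-C, an anti-adhesive protein of wounds and tumour stroma (chromosome 4, 63959785 to 64047015, minus strand). Alone, 3 counts fell in replicate 1 and 0 in the others, a mean of 0.446 CPM. It was at 3.44, 2.86 and 5.59 CPM with PyMT-M cells and 445, 521 and 548 with PyMT-N cells, so a low but separate level in the former stood against a high one in the latter. Summed counts with PyMT-N cells were 1060.3 times those alone after scaling (95% exact interval 363 to 5143), and those with PyMT-M cells 7.93 times (2.57 to 39.7). PyMT-N against PyMT-M gave a log2 fold change of 7.03 ± 0.32.

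Ccn1 and Ccn2 encode secreted CCN proteins that bind integrins and are widely used as readouts of the YAP and TAZ coactivators (chromosome 3, 145646976 to 145649981, minus strand, and chromosome 10, 24595442 to 24598683, plus strand). Each had 1 count in the 3 alone libraries together. Ccn1 was at 26.0, 20.6 and 21.8 CPM with PyMT-M cells and 229.6, 282 and 269.7 with PyMT-N cells. Its summed counts were 142 times the alone value with PyMT-M (95% exact interval 25.4 to 5640.3) and 1634 times with PyMT-N cells (293 to 64573). Between the co-cultures its log2 fold change was 3.51 ± 0.22.

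Ccn2 had 0.215, 3.24 and 1.06 CPM in the PyMT-M libraries, from 1, 17 and 4 counts, and 129, 150.1 and 152 CPM in the PyMT-N libraries. The PyMT-M and alone libraries overlapped. Most of the PyMT-M counts came from replicate 2. The ratio of summed counts to alone was 10.1 with PyMT-M (95% exact interval 1.63 to 416) and 903 with PyMT-N cells (162 to 35685). PyMT-N against PyMT-M gave 6.46 ± 0.40, and 7.82 without PyMT-M replicate 2. The CCN genes thus differed in PyMT-M co-culture, where Ccn1 stood well above the floor in all libraries and Ccn2 in replicate 2, while both were high in PyMT-N co-culture.

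Fbln2 encodes fibulin-2, which binds fibronectin and basement membrane proteins (chromosome 6, 91212455 to 91272540, plus strand). It had 5, 4 and 0 counts alone, a mean of 1.24 CPM. It was at 37.8, 41.8 and 35.1 CPM with PyMT-M cells and at 426, 518 and 472 with PyMT-N cells, without overlap. The log2 fold changes were 8.33 ± 0.36 with PyMT-N and 4.71 ± 0.43 with PyMT-M cells relative to alone, and 3.62 ± 0.21 between the co-cultures.

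Sparc encodes a collagen-binding matricellular protein also called osteonectin (chromosome 11, 55394500 to 55423183, minus strand). A single count was found in the alone libraries. It was at 335, 397 and 377 CPM with PyMT-M cells and 46.8, 92.0 and 65.4 with PyMT-N cells, the only member with its highest level in PyMT-M co-culture. The ratio of summed counts to alone was 2314 with PyMT-M (95% exact interval 415 to 91405) and 425 with PyMT-N cells (76.1 to 16825). The log2 fold change of PyMT-N against PyMT-M was -2.44 ± 0.24.

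The alone counts of Sparc, Ccn1 and Tnc all came from replicate 1 and that of Ccn2 from replicate 2, so without that library the alone group was at 0. Fitted log2 fold changes with PyMT-N cells then went from 8.44 to 10.97 for Sparc, 10.38 to 12.90 for Ccn1, 9.94 to 13.86 for Tnc and 9.52 to 12.02 for Ccn2. With PyMT-M cells they went from 10.88 to 13.41, 6.87 to 9.39, 2.91 to 6.83 and 3.07 to 5.57 in the same order. Without alone replicate 2, which had none of their counts, Sparc, Ccn1 and Tnc had 7.76, 9.70 and 9.18 with PyMT-N cells and 10.20, 6.19 and 2.15 with PyMT-M cells. Without PyMT-M replicate 2, Ccn2 had 1.69 with PyMT-M cells. These fitted values depend on how zero counts are handled and are not bounds.

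**Figure D3:**
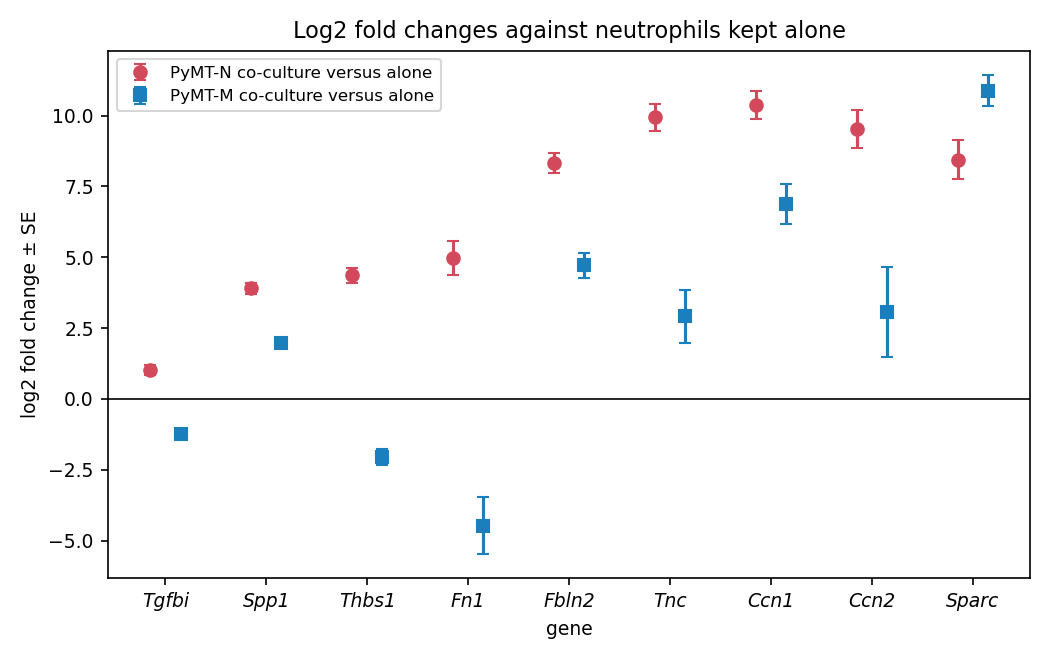
Log2 fold change with its SE (bars) of the 9 genes against neutrophils kept alone, circles for PyMT-N and squares for PyMT-M co-culture, with TMM scaling. All circles lie above 0, while Tgfbi, Thbs1 and Fn1 lie below 0 for PyMT-M co-culture, where pan-leukocyte scaling turned Tgfbi to 0.26. Values for Tnc, Ccn1, Ccn2 and Sparc rest on 1 to 3 alone counts.

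Epithelial and mesenchymal transcripts also differed between the groups. With PyMT-N cells 16 of 17 tested epithelial markers were higher and 0 lower (median log2 fold change 8.94), and with PyMT-M cells 3 were higher and 1 lower (0.39). Of 16 tested mesenchymal markers, 7 were higher and 2 lower with PyMT-N (0.04), and 13 higher and 1 lower with PyMT-M cells (7.67). Over all genes 29.4% were higher and 23.6% lower with PyMT-N cells, and 28.2% and 27.9% with PyMT-M cells. Krt14, Cldn4 and Esrp1 had no count alone or with PyMT-M cells and could pass the filter only through PyMT-N counts. Col1a2, Col6a2 and Twist2 had none alone or with PyMT-N cells and could pass only through PyMT-M counts. The filter thus favoured rises among such markers. Krt8, an epithelial keratin, was at 0.149 CPM ± 0.257 (SD, n = 3) in the alone group, 43.5 ± 5.50 in PyMT-M and 378 ± 18.0 in PyMT-N co-culture. Krt18, its usual partner keratin, was at 0.697 ± 0.670, 0.127 ± 0.220 and 332 ± 29.0 CPM in the same order. Epcam, an epithelial adhesion molecule, had no count alone, 1.92 ± 0.205 CPM in PyMT-M and 190.3 ± 38.4 in PyMT-N co-culture. Col1a1, a fibroblast collagen, was at 6.15 ± 5.92, 43.8 ± 12.9 and 0.853 ± 0.299 CPM in the same order. Of the 18 epithelial markers 7 had no count alone, 5 none with PyMT-M and 1 (Krt5) none with PyMT-N cells. Of the 21 mesenchymal markers 8 had no count alone, 4 none with PyMT-M and 7 none with PyMT-N cells. Krt8 and Krt18 thus differed in PyMT-M co-culture. Col1a1 was highest there and lowest with PyMT-N cells, unlike the mesenchymal sum, which was lowest alone. The part of epithelial and mesenchymal RNA in the members' levels was not tested.

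Per kilobase of exon, which allows genes to be compared, Tgfbi had the highest alone level, 92.9 normalised CPM per kb. Spp1 (38.1), Thbs1 (11.4) and Fn1 (2.85) followed, each without overlap with the next, and the other 5 genes overlapped one another at 0.195 or less. With PyMT-M cells the order was Spp1 (151), Sparc (97.6), Tgfbi (39.4), Ccn1 (11.3), Fbln2 (6.01) and Thbs1 (2.62), without overlap. Ccn2 (0.527) and Tnc (0.510) overlapped, and Fn1 (0.104) came last. With PyMT-N cells Spp1 led at 576. Thbs1 (225) and Tgfbi (186) overlapped, Ccn1 lay at 129, Fn1 (75.7), Fbln2 (74.1) and Tnc (64.9) overlapped, and Ccn2 (50.2) and Sparc (18.0) came last. As a share of the PyMT-N mean, the alone mean was 49.9% for Tgfbi, 6.61% for Spp1, 5.07% for Thbs1, 3.77% for Fn1 and 0.263% or less for the other 5 genes. Osteopontin had the highest level per kb in both co-cultures, and fibronectin went from the lowest place with PyMT-M cells to the middle of the order with PyMT-N cells.

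By a fixed rule, the 2 genes most like each member were taken by Pearson correlation of log2 CPM over the 9 libraries, among 6944 genes. The libraries fall into 3 groups, so likeness mostly reflects group means. Bcl3 (r = 0.9932) was most like Fn1, Txnip (0.9968) most like Thbs1, Ctsl (0.9974) most like Spp1 and Pvt1 (0.9959) most like Sparc. Errfi1 (0.9953) was most like Tnc, Ephb4 (0.9978) most like Ccn1, Csf3 (0.9906) most like Ccn2, Csf2rb (0.9941) most like Tgfbi and Itga3 (0.9959) most like Fbln2. The next most alike were Ctsc for Fn1, Ccl6 for Thbs1, Agrn for Spp1, Rbfox2 for Sparc and Acsl4 for Tnc, then Nipal1 for Ccn2, Tgfbr2 for Tgfbi and Trim30a for Fbln2. Among the members, Fn1 and Thbs1 had r = 0.98, Spp1, Ccn1 and Fbln2 0.99 with one another, and Tnc and Ccn2 0.97, while Sparc and Tgfbi had -0.32.

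The receptors of these proteins were taken as a list of 25 genes, of which 23 were tested. With PyMT-N cells 15 rose, 7 fell and 1 did not pass the test (edgeR quasi-likelihood test, adjusted p under 0.05), against 29.4% and 23.6% of all genes. Their median log2 fold change was 1.51, against 0.12 over all genes. With PyMT-M cells 8 rose, 8 fell and 7 did not pass, against 28.2% and 27.9% of all genes that rose and fell. The median was 0.22 against -0.03, and both counts are shares near those over all genes. Pan-leukocyte scaling turned the PyMT-M split to 14 higher and 2 lower, and library totals to 9 and 5. Between the co-cultures 13 were higher with PyMT-N cells and 2 lower, against 19.1% and 15.5% of all genes, with a median of 1.17.

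Chains of integrins that bind fibronectin and laminins were among the receptors that rose with PyMT-N cells. Itgb1, the beta chain shared by many of them, rose by 2.11 ± 0.18 with PyMT-N (adjusted p = 2.23e-07) and 1.08 ± 0.18 with PyMT-M cells (1.44e-04). Itga5, its fibronectin-binding partner, rose by 2.63 ± 0.31 with PyMT-N cells (adjusted p = 6.00e-06), from 15.7 to 99.7 CPM. Itgav, a chain of receptors for osteopontin and fibronectin, rose by 1.39 ± 0.23 with PyMT-N cells (adjusted p = 1.45e-04) and had 0.22 ± 0.24 with PyMT-M cells (0.451). Of the beta chains on the same list, Itgb5 rose by 1.51 ± 0.34 with PyMT-N cells (adjusted p = 0.00157). Itgb3 went the other way, at -2.14 ± 0.41 (adjusted p = 4.42e-04), from 29.8 to 7.15 CPM. Itga2 and Itga3 had 3 counts each alone. With PyMT-N cells Itga3 was at 333 CPM ± 18.1 (SD, n = 3), 697 times its alone counts (95% exact interval 238 to 3379), and Itga2 at 154 ± 18.3, 322 times (110.0 to 1562). Both are typical of epithelial cells, and Itga3 reached 26.3 CPM ± 5.29 with PyMT-M cells. The part of epithelial RNA in these levels was not tested.

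Among the receptors that fell, Itga4, a chain that binds fibronectin and osteopontin, fell from 59.7 CPM ± 40.6 (SD, n = 3) to 0.610 ± 0.200 with PyMT-N cells, a log2 fold change of -6.47 ± 0.68 (adjusted p = 6.31e-07), and by 3.17 with PyMT-M cells (2.03e-05). Its difference between co-cultures, -3.29 ± 0.92 (adjusted p = 0.00955), was lost without PyMT-N replicate 3 (0.0581). Cd36, a thrombospondin receptor of monocytes and platelets, fell by 3.87 with PyMT-N cells (adjusted p = 1.23e-05) and had -3.29 ± 0.49 against PyMT-M co-culture (8.64e-05). With PyMT-M cells against alone Cd36 had -0.59 ± 0.34 (adjusted p = 0.152), or 0.88 under pan-leukocyte scaling. Itgb2, the beta chain of leukocyte integrins, fell by 1.68 and 1.85 (adjusted p = 7.16e-06 and 4.21e-06), the latter -0.39 under pan-leukocyte scaling (0.0835). Itgam, its partner in neutrophils and monocytes, fell by 1.65 with PyMT-M cells (adjusted p = 7.35e-05), or -0.18 under pan-leukocyte scaling (0.58). With PyMT-N cells Itgam had -0.65 ± 0.25 (adjusted p = 0.036), a call that held in 2 of 9 fits with a library left out and turned to 0.39 under pan-leukocyte scaling. Alongside, 6 of 6 tested B cell, 6 of 8 dendritic and 8 of 13 monocyte and macrophage markers fell with PyMT-N cells, against 23.6% of all genes. With PyMT-M cells 5, 7 and 8 fell, against 27.9% of all genes. Of the monocyte and macrophage markers 2 rose with PyMT-N and 4 with PyMT-M cells. The part of these cell types in the falls of the receptors was not tested.

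Cd44, a receptor of osteopontin, was at 1037 CPM ± 112 (SD, n = 3) alone, 569 ± 123 in PyMT-M and 2533 ± 32.6 in PyMT-N co-culture. Its log2 fold change was 1.29 ± 0.17 with PyMT-N (adjusted p = 1.46e-05) and -0.87 ± 0.17 with PyMT-M cells (5.18e-04), the latter 0.61 under pan-leukocyte scaling. Cd47, a thrombospondin-1 receptor, had 0.96 ± 0.18 (adjusted p = 3.84e-04) and -0.56 ± 0.18 (0.016), the latter 0.93 under pan-leukocyte scaling. Without PyMT-M replicate 2 that fall of Cd47 was no longer called (adjusted p = 0.0756). Under TMM scaling Cd44 and Cd47 therefore had the signs of Fn1, Thbs1 and Tgfbi in both comparisons. Sdc4, a syndecan that binds fibronectin, rose by 3.99 ± 0.33 (adjusted p = 1.44e-07) and 3.44 ± 0.33 (1.26e-06). Sdc2, another syndecan, rose by 6.31 ± 0.54 with PyMT-M cells (adjusted p = 9.75e-08), from 0.719 to 66.0 CPM.

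**Figure D4:**
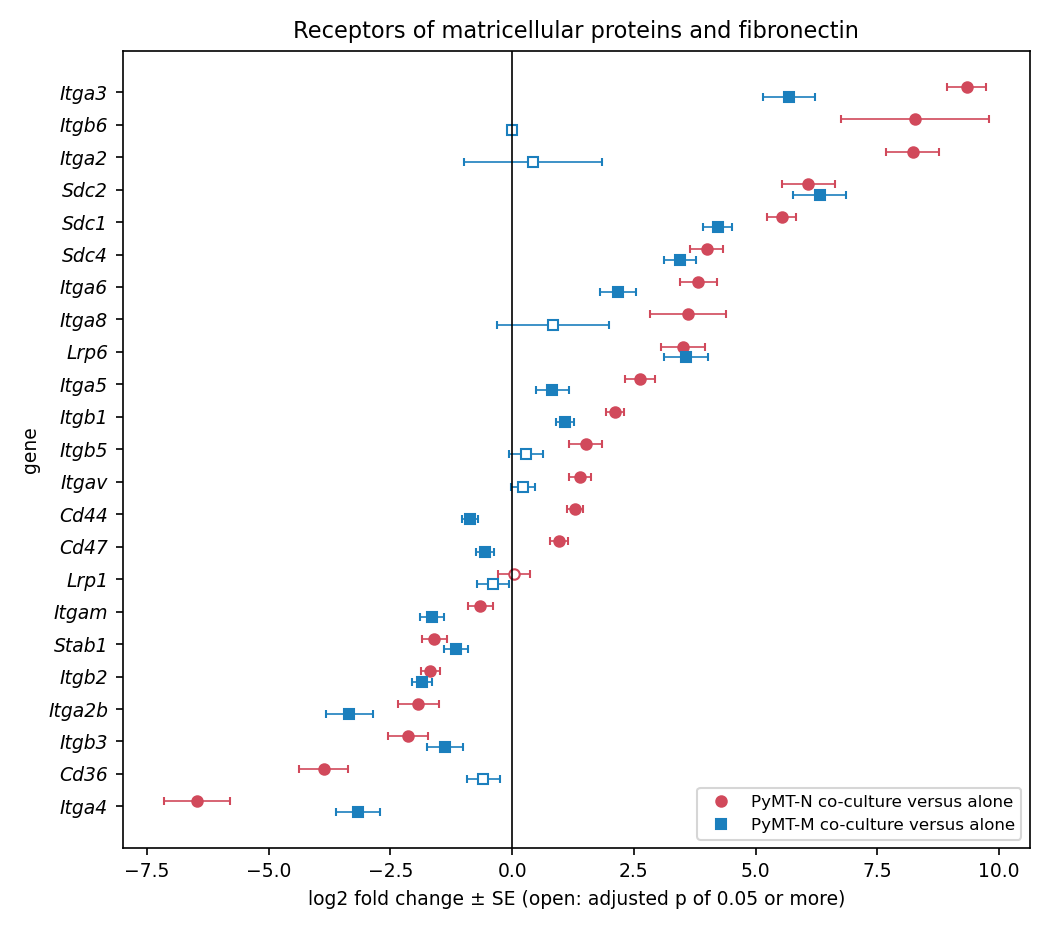
Log2 fold change with its SE (bars) of 23 receptor genes against neutrophils kept alone, circles for PyMT-N and squares for PyMT-M co-culture, filled where the adjusted p is under 0.05, with TMM scaling. Under TMM Cd44 and Cd47 are on opposite sides of 0 in the 2 comparisons, and under pan-leukocyte scaling both are above 0 in each. Itgb6 and the integrin chains with 3 or fewer alone counts have fitted values that are not bounds.

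Other matricellular genes were a list of 30, of which only 5 passed the filter. Ccn4, Thbs3, Smoc1 and Fstl1 were low alone and with PyMT-N cells, so they passed through their PyMT-M counts. The filter thus favoured genes higher with PyMT-M cells than in the other groups, and nothing is read from the counts of this list. All 5 (Ccn4, Thbs3, Smoc1, Fstl1 and Efemp2) rose with PyMT-M cells, with a median of 5.63, or 4.29 with the genes absent alone set at their bound. Over all genes 28.2% rose in that comparison, with a median of -0.03. With PyMT-N cells 1 rose and 0 fell, against 29.4% and 23.6% of all genes. The median was -0.12, against 0.12 over all genes. Between the co-cultures 4 were lower with PyMT-N cells and 0 higher, against 15.5% and 19.1% of all genes. The median was -4.19, against -0.02. Fstl1, a secreted SPARC relative, was at 1.88 CPM ± 1.71 (SD, n = 3) alone, 96.8 ± 14.7 in PyMT-M and 1.12 ± 0.975 in PyMT-N co-culture, and rose by 5.63 ± 0.50 with PyMT-M cells (adjusted p = 2.47e-07). Efemp2, a fibulin of elastic fibres, had no count alone and was at least 63.2-fold higher with PyMT-M and 59.1-fold higher with PyMT-N cells, taking 3 counts over all alone libraries as the floor. Smoc1, Fstl1, Thbs3 and Ccn4 were higher with PyMT-M than with PyMT-N cells, as Sparc was and Thbs1, Ccn1 and Ccn2 were not. The other SPARC, thrombospondin and CCN relatives on the list did not pass the filter, so nothing is read about these families.

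Among 16 tested of 27 matrix assembly partners, 10 rose and 1 fell with PyMT-N cells, and 9 rose and 2 fell with PyMT-M cells, with medians of 3.54 and 3.29. Pan-leukocyte scaling gave 10 and 0, and 12 and 0. Between co-cultures 6 were higher and 6 lower, with a median of -0.74. Over all genes 29.4% rose and 23.6% fell with PyMT-N cells, and 28.2% and 27.9% with PyMT-M cells. Between the co-cultures 19.1% of all genes were higher and 15.5% lower. Tgm2, which cross-links fibronectin, was at 3.88 CPM ± 2.53 (SD, n = 3) alone, 6.16 ± 1.99 in PyMT-M and 101 ± 19.5 in PyMT-N co-culture, and differed by 4.06 ± 0.31 between the co-cultures (adjusted p = 9.83e-08). Ltbp2, which binds fibrillin, had no count with PyMT-M cells and 43.5 CPM ± 2.91 with PyMT-N cells, at least 199-fold higher in the latter. Its fall with PyMT-M cells against alone (adjusted p = 0.0251) rests on 10 alone counts against 0, was lost without alone replicate 2 (0.378) and without PyMT-M replicate 1 (0.0514) or 2 (0.0606), and under pan-leukocyte scaling (0.125). Loxl2, a collagen cross-linker that is also in the mesenchymal marker list, was at 31.4 CPM ± 4.41 in PyMT-M and 0.187 ± 0.162 in PyMT-N co-culture, whose 2 counts were exceeded 183 times (95% exact interval 50.4 to 1517). Ltbp4, which holds latent TGF-beta, was also lower with PyMT-N cells, at -3.85 ± 0.39 (adjusted p = 6.33e-07). Nid1 and Hspg2, of basement membranes, had no count alone. Nid1 was at least 43.5-fold and Hspg2 at least 88.6-fold higher with PyMT-M cells, and with PyMT-N cells 29.0-fold and 41.8-fold.

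The YAP, SRF and TGF-beta list, regulators and targets that control several members, had 26 of 30 genes tested. With PyMT-N cells 16 rose and 3 fell, and with PyMT-M cells 11 rose and 8 fell, with medians of 1.64 and 0.57. Pan-leukocyte scaling gave 22 and 0, and 18 and 0. Between co-cultures 12 were higher and 4 lower with PyMT-N cells, with a median of 0.65. Over all genes 29.4% rose and 23.6% fell with PyMT-N cells, and 28.2% and 27.9% with PyMT-M cells. Between the co-cultures 19.1% of all genes were higher and 15.5% lower. The 8 falls with PyMT-M cells and the 4 lower genes between co-cultures are thus shares near the background. Yap1, the coactivator, was at 1.25 CPM ± 1.14 (SD, n = 3) alone, 1214 ± 172 in PyMT-M and 72.7 ± 17.6 in PyMT-N co-culture, a difference of -4.06 ± 0.24 (adjusted p = 1.05e-09). Tead1, its DNA-binding partner, had no count alone and was at 70.1 ± 20.9 and 115 ± 26.2 CPM, at least 149.5-fold and 243-fold higher. Ankrd1, a YAP target, was at 1.07 ± 0.456 CPM in PyMT-M and 144 ± 23.6 in PyMT-N co-culture, a log2 difference of 7.09 ± 0.37 (adjusted p = 6.64e-09), and had no count alone. With PyMT-M cells against alone Ankrd1 was not called (adjusted p = 0.0688). By group means, Ankrd1 was lowest alone and highest with PyMT-N cells, an order shared by Spp1, Tnc, Ccn1, Ccn2 and Fbln2. Yap1 had the order of Sparc, as did Hspg2, so neither order is particular to YAP genes. Cavin2, of caveolae, was higher with PyMT-N than with PyMT-M cells by 6.26 ± 0.53 (adjusted p = 2.37e-07). Tead2, another partner of YAP, was lower, at -2.31 ± 0.32 (adjusted p = 4.88e-05).

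Tgfbr2, a TGF-beta receptor and one of the 2 genes most like Tgfbi over these libraries, had its signs under TMM scaling. Shared signs follow from that likeness, and Cd44 and Cd47 had them too. Tgfbr2 was at 60.3 CPM ± 10.4 (SD, n = 3) alone, 18.0 ± 1.78 in PyMT-M and 142 ± 13.6 in PyMT-N co-culture. It rose by 1.25 ± 0.21 with PyMT-N cells (adjusted p = 1.60e-04) and fell by 1.73 with PyMT-M cells (2.93e-05), a change of -0.25 under pan-leukocyte scaling (0.507). Tgfbr1 fell by 1.80 with PyMT-M cells (adjusted p = 5.33e-04), or -0.38 under that scaling (0.374). Smad2, a TGF-beta signal transducer, fell by 1.15 with PyMT-N cells (adjusted p = 4.61e-04), and Mrtfa, a coactivator of SRF, by 1.27 (8.87e-04). Under pan-leukocyte scaling these were -0.09 (adjusted p = 0.79) and -0.22 (0.548).

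Proteases known to cut matrix and matricellular proteins had 17 of 18 genes tested. With PyMT-N cells 7 rose and 4 fell, and with PyMT-M cells 5 rose and 10 fell, with medians of 0.62 and -0.83. Over all genes 29.4% rose and 23.6% fell with PyMT-N cells, and 28.2% and 27.9% with PyMT-M cells, so the 4 falls and the 5 rises are shares near the background. Pan-leukocyte scaling gave 12 and 4, and 8 and 3. Between co-cultures 9 were higher and 1 lower with PyMT-N cells, against 19.1% and 15.5% of all genes, with a median of 0.90. Mmp3, stromelysin-1, had no count alone, 3.64 CPM ± 2.17 (SD, n = 3) in PyMT-M and 287 ± 43.4 in PyMT-N co-culture, at least 7.17-fold and 601-fold higher. Plau, urokinase, was at 5.27 ± 6.62, 4.07 ± 2.70 and 157 ± 7.87 CPM, a difference of 5.34 ± 0.43 between co-cultures (adjusted p = 1.76e-07). Mmp2, gelatinase A, was lower with PyMT-N than with PyMT-M cells, at -3.10 ± 0.49 (adjusted p = 9.25e-05). Adamts4 had no count alone and was at least 40.7-fold higher with PyMT-N cells. Its call with PyMT-M cells, where it was at least 4.58-fold higher (adjusted p = 0.0279), was lost without PyMT-M replicate 3 (0.0577) and alone replicate 1 (0.0723) or 2 (0.0861).

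Several proteases made by leukocytes are on the same list, and they did not move alike. Prtn3, proteinase 3 of neutrophil granules, fell by 3.53 with PyMT-N (adjusted p = 1.74e-05) and by 4.37 with PyMT-M cells (5.98e-06). Adam8, a leukocyte metalloprotease, fell by 2.02 (adjusted p = 1.37e-05) and had -1.89 ± 0.26 with PyMT-M cells (2.80e-05), the latter -0.44 under pan-leukocyte scaling (0.116). Mmp9, gelatinase B of neutrophil granules and also a neutrophil marker, was at 3492 CPM ± 564 (SD, n = 3) alone and had -0.23 ± 0.19 with PyMT-N cells (adjusted p = 0.321), or 0.81 under pan-leukocyte scaling. It fell by 1.81 with PyMT-M cells (adjusted p = 3.57e-06), or -0.35 under that scaling (0.0817). Neutrophil markers fell alongside, with 11 of 14 called lower and 0 higher in each comparison with alone. Over all genes 23.6% fell with PyMT-N and 27.9% with PyMT-M cells. The part of the marker falls in the protease falls was not tested.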

How the data were processed

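The authors deposited whole-number read counts for each Ensembl gene in 9 libraries, without normalisation. The submitters' processing notes name STAR and the builds GRCm38 and mm10. The sources used here do not name the counting tool, its annotation or its strand setting, so reads of overlapping genes cannot be told apart (at most 49 counts in a gene overlapping a member, against 6044 for Tnc). Libraries were made from 150 pg of RNA, per the labels' protocols.

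Symbols, coordinates and exon lengths came from GENCODE M21 (GRCm38), which matched 54495 of 54532 identifiers. Low genes were removed by filterByExpr (edgeR 4.0.16; minimum count 10, minimum total 15), and counts were scaled by TMM and tested in one model of 3 group means with the quasi-likelihood F test (robust, legacy off), with Benjamini-Hochberg adjustment over 12012 genes and a threshold of 0.05. SE is the log2 fold change over the square root of F. Where a group had 1 to 3 counts, a ratio of summed counts with an exact 95% binomial interval is given, and where it had 0, a bound against 3 counts over the group. These intervals and bounds hold for counting error alone.

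The members and the 5 pathway and 11 marker lists were chosen with earlier results of these data known. Genes other than members were named by rule: the 2 genes most correlated with each member of at least 16 mean CPM (mean log2 CPM at least 4, no predicted gene models), the 2 largest called rises and falls per list and comparison (mean log2 CPM at least 3), and a set of receptors and markers worth a sentence. Smoc1, Ccn4 and Thbs3 were named after their values were seen. Some genes of the rule and the lists are not reported here. The code was tested on simulated counts. Alternatives were relative log expression factors, library totals, pan-leukocyte scaling, no filter, at least 50 counts in 3 libraries, DESeq2 1.42.0, only the groups compared, the replicate block, each library left out, and, added later, legacy estimation.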

Additional observations from a re-analysis of the deposited data

Results flagged for a closer look

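For 3 members every library of one co-culture lay above, and every library of the other below, all libraries of neutrophils kept alone, a difference in direction that was not tested because these values chose the genes. The log2 fold change of Fn1 against alone was 4.96 with PyMT-N and -4.47 with PyMT-M cells. The latter was -2.99 under pan-leukocyte scaling and -3.20 without alone replicate 3. For Thbs1 the change was 4.36 with PyMT-N and -2.05 with PyMT-M cells, and the latter became -0.56 under pan-leukocyte scaling. For Tgfbi it was 1.01 with PyMT-N and -1.23 with PyMT-M cells, and the latter became 0.26 under pan-leukocyte scaling. Both values of a gene share the same 3 alone libraries.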

How the results depend on the processing

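Member fold changes, given without a test, kept their sign in every setting tried with 1 exception: Tgfbi for PyMT-M co-culture against alone, at -1.23, reversed to 0.26 under pan-leukocyte scaling. Fitting only PyMT-M and alone gave no value for Ccn2, which the filter then removed. Emilin2, a fibre-associated glycoprotein that fell by 1.27 with PyMT-M cells (adjusted p = 8.86e-05), went to 0.19 under pan-leukocyte scaling. Scaling decided the split of calls over all genes: 55.5%, 50.2% and 55.2% of called genes were higher for PyMT-N against alone, PyMT-M against alone and PyMT-N against PyMT-M with TMM, 67.1%, 70.5% and 40.4% with library totals, and 88.1%, 96.2% and 30.2% with pan-leukocyte scaling. Counts of called genes, 6364, 6735 and 4162, stayed within 1.5 times of these values, and leaving out each library gave 5604 to 7182, 5875 to 7505 and 3235 to 5630. Depth limits the size of differences from alone for Sparc, Tnc, Ccn1 and Ccn2, with 0 to 3 counts per alone library and the wide intervals given, and for Fbln2, with 0 to 5.

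Deviations from the group means had correlations across genes of -0.0781 to 0.0285 between same-numbered libraries of different groups. Between differently numbered libraries they were -0.0618 to 0.0682. With 3 libraries per group these values cannot show whether a number marks a shared animal. The main model left the replicate number out because the labels do not say what it marks. With the replicate number as a block, 6103, 6517 and 3967 genes were called.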
